A study of Mus musculus with 24 samples.

Results

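B cells are not the cells this experiment set out to sequence, yet transcripts of B cell lineage genes were measurable in every group of CD8 T cell libraries. Examined here were 33 genes of the B cell lineage, named by symbol, and all 33 were found among the 48526 genes of the count files. All 33 also passed the filter on low counts and were tested with the other genes (14560 in all). Spleen cells of OT-1 mice, which carry a transgenic T cell receptor for an ovalbumin peptide, were cultured with 2 µg/mL peptide, and T cells were then isolated by negative selection with magnetic beads. The 6 groups of 4 libraries each were TLR7 (a TLR7 agonist and peptide), TLR2 (a TLR2 agonist and peptide) and OVA (peptide alone), each at 72 h and at 24 h. Agonists were added 1 h before the peptide. The labels list 300 ng/mL Pam3CSK4, a TLR2 ligand, and both 3 µg/mL gardiquimod and 10 µg/mL R848, which act on TLR7, without saying which of these the TLR7 groups received. No sex, age or number of mice was given for the cultures, so the p-values measure the spread between these libraries, which may be technical.

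A B cell recognises antigen through a membrane immunoglobulin that signals through the CD79A and CD79B chains, to which the kinases LYN, BLK, SYK and BTK and the adaptors BLNK and BANK1 are coupled. Coreceptors such as CD22 and CD72 restrain that signal, CR2 strengthens it, and BAFF receptor, TACI and CD40 carry survival and help signals. PAX5 and EBF1 hold the lineage programme in place. Mouse B cells carry TLR7 and TLR2 themselves and respond to ligands of both, and beads directed at B cell surface proteins remove them from a T cell preparation. Of the 33 genes, 12 are on a list of genes also known in myeloid or dendritic cells (Lyn, Syk, Btk, Cd40, Cd72, Cd180, Mef2c, Spib, Bcl11a, Blnk, Hhex and Siglecg) and 7 on a list of genes also known in T cells (Cxcr5, Pou2f2, Fcmr, Blk, Ly6d, Hhex and Pou2af1). Which cells their reads came from was not tested.

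Libraries held 10.5 to 27.1 M (mega) counts, and 5 held under 15 M counts. On the first principal component, which took up 60.2% of the variance of all tested genes, 8 libraries lay between the times (-20.5 to -1.2, against -90.5 to -56.5 for the other 72 h libraries and 85.2 to 99.1 for the other 24 h libraries). They were TLR2 replicates 1, 3 and 4 and OVA replicate 4 at 72 h, and TLR7 replicates 3 and 4 and OVA replicates 1 and 3 at 24 h. OVA replicate 3 at 72 h carried macrophage markers, with Csf1r at 17.3 CPM (counts per M counts, with TMM-scaled library sizes), against 0.168 to 0.239 CPM in the other OVA libraries of that time. OVA replicate 2 at 24 h stood apart in other myeloid genes, with Lyz2 at 48.3 CPM (2.23 to 6.98 CPM in the other OVA libraries of that time) and S100a8 at 39.9 CPM (0.495 to 6.72 CPM), and it was the highest OVA library of 24 h for 25 of the 33 genes. Cd8a lay between 457 and 904 CPM in all 24 libraries.

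Promoter sequence (RefSeq, GRCm38.p6, 250 bases before to 50 after the start) was at hand for 26 of the 33 genes, as 35 windows. Windows of 4 genes are printed because their transcripts parted under the TLR7 agonist at 24 h, the first pair being lower in every TLR7 library than in any OVA library and the second pair overlapping OVA. Capitals mark the octamer ATTTGCAT, the sequence that POU2F2 and its coactivator POU2AF1 bind.
Cd79a, chr7:24897247-24897546, plus strand: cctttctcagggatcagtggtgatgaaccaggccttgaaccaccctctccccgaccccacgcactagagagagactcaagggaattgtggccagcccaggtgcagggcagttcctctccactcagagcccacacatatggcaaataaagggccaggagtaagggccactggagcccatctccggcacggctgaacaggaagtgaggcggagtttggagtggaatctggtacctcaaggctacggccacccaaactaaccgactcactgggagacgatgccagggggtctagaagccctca
Fcmr, chr1:130865527-130865826, plus strand: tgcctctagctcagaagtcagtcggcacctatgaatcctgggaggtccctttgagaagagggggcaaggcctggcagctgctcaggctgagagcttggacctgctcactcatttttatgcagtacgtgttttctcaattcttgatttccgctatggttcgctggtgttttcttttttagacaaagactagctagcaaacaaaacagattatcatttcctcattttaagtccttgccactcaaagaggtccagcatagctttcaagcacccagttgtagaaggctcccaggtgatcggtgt
Blnk, chr19:40994172-40994471, minus strand: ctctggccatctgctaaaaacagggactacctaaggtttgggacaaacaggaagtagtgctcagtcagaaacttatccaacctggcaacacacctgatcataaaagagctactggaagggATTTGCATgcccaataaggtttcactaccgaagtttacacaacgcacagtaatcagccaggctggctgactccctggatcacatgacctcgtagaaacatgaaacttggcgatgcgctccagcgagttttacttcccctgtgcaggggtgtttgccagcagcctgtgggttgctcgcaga
Pou2af1, chr9:51213440-51213739, plus strand: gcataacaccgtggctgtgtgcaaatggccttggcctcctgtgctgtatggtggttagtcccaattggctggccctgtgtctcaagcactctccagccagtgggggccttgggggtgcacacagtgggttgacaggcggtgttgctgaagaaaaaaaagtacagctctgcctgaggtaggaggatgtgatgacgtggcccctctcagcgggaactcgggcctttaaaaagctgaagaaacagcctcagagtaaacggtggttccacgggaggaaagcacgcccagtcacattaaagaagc
Searched on both strands, the octamer stood in 2 of the 35 windows (5.71%, Blnk and Vpreb3), against 1.74% of all 32851 promoter windows. The EBF core CCCNNGGG stood in 3 of 35 (8.57%, Bank1, Cd22 and Spib), against 13.7% of all windows. The PU.1 core GAGGAAGT stood in 2 of 35 (5.71%, Cd72 and Fcrl1), against 3.2% of all. A match describes letters in a window and is not a binding site.

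At 24 h the TLR7 libraries held less transcript of the 33 genes than the OVA libraries, unevenly across the genes. Summed over the 33, the level was 218, 210, 143 and 163 CPM in TLR7 libraries 1 to 4, 362 to 420 CPM in TLR2 libraries, and 271, 562, 272 and 467 CPM in OVA libraries 1 to 4. Fitted fold changes were below 0 for 32 of the 33, with a median of -1.25 on the log2 scale, against -0.03 over all genes tested. Cd79b, Fcer2a and Fcmr passed the test (edgeR quasi-likelihood, Benjamini-Hochberg adjusted p under 0.05 over all genes), each lower in TLR7, against 0.0687% of all genes called lower. For 15 members every TLR7 library lay below every OVA library, against 3.03% of all genes. In bulk RNA, fewer B cells and less RNA per B cell cannot be told apart.

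Per-library values below run from replicate 1 to 4. Among the receptor chains, Cd79a measured 4.22, 2.77, 2.38 and 2.21 CPM in TLR7, 14, 7.22, 21.9 and 12.7 CPM in TLR2 and 16.2, 30.9, 13.3 and 29.5 CPM in OVA libraries. Cd79b measured 4.79, 4.1, 5.19 and 5.68 CPM in TLR7, 17.2, 11, 21.9 and 12.4 CPM in TLR2 and 15.5, 42.7, 15.6 and 30.4 CPM in OVA libraries. Both chains were lower in all 4 TLR7 libraries than in any OVA or TLR2 library. Cd79b fell by 2.39 ± 0.43 (log2, SE; adjusted p = 0.0283 by edgeR), and the same difference for Cd79a, -2.95 ± 0.87, missed the threshold (adjusted p = 0.155 by edgeR). Within the 4 libraries between the times, Cd79b stood at 5.19 and 5.68 CPM in TLR7, against 15.5 and 15.6 CPM in OVA, so it was lower on both sides of that split.

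Among the kinases and adaptors, Blk was lower in every TLR7 than in any OVA library, whereas Lyn, Blnk, Btk, Syk and Bank1 overlapped. Lyn measured 12.5, 12.1, 7.27 and 7.93 CPM in TLR7, 9.36, 14.5, 10.7 and 10.7 CPM in TLR2 and 7.32, 12.9, 5.61 and 9.55 CPM in OVA libraries. Its TLR7 libraries lay within the range of its OVA libraries (log2 fold change 0.17 ± 0.31). Blnk measured 7.51, 7.53, 2.98 and 4.27 CPM in TLR7, 6.26, 9.37, 8.55 and 8.14 CPM in TLR2 and 3.58, 11.6, 4.04 and 6.81 CPM in OVA libraries, a difference of -0.23 ± 0.74. Both genes were lower in the libraries between the times of each group, and TLR7 and OVA overlapped on either side of that split. Btk measured 3.95, 6.2, 3.59 and 2.59 CPM in TLR7, 7.06, 12.1, 7.41 and 7.07 CPM in TLR2 and 3.58, 9.86, 3.75 and 8.57 CPM in OVA libraries. Syk measured 14.8, 13.1, 6.7 and 7.54 CPM in TLR7, 20, 30.9, 21.7 and 25.2 CPM in TLR2 and 11.2, 21.4, 10.4 and 21.7 CPM in OVA libraries. Here too TLR7 and OVA overlapped. Bank1 measured 5.4, 5.25, 2.16 and 2.1 CPM in TLR7, 8.23, 19, 10.7 and 14.1 CPM in TLR2 and 6.1, 13.2, 5.2 and 10.6 CPM in OVA libraries, with TLR7 libraries 1 and 2 just above OVA library 3. Blk, a Src-family kinase close to Lyn, averaged 0.665 ± 0.188 CPM in TLR7 and 4.81 ± 1.92 CPM in OVA libraries (SD, n = 4), and its libraries did not overlap. Its log2 difference of -2.86 ± 0.83 missed the threshold (adjusted p = 0.148 by edgeR).

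**Figure D1:**
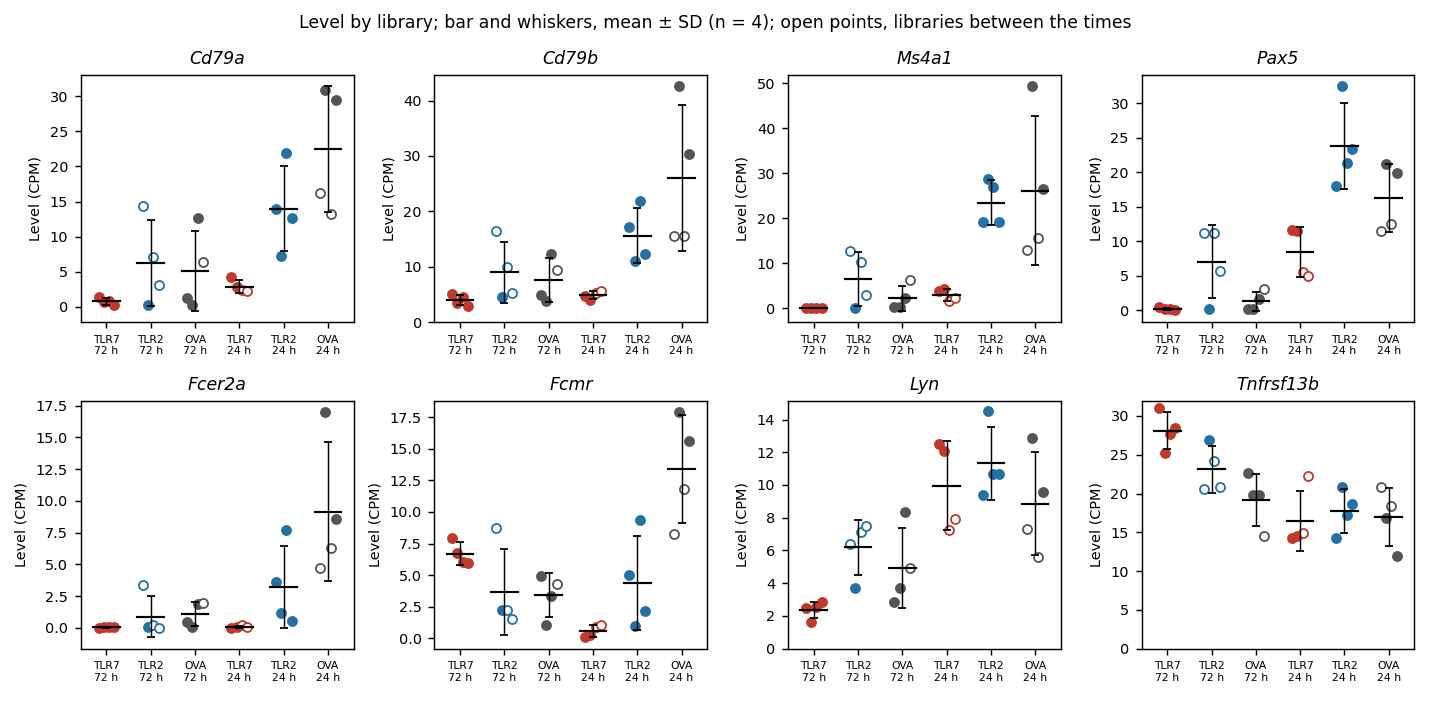
Level of 8 of the genes (CPM) in each library, by group, with bars and whiskers at the mean ± SD (n = 4) and open points for the libraries between the times. Fcmr averaged 6.7 CPM in TLR7 at 72 h and 0.578 CPM in TLR7 at 24 h, while Ms4a1 was at or near 0 in every TLR7 library at 72 h.

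A pair of immunoglobulin receptors gave the steepest differences at 24 h. Fcer2a, the low-affinity IgE receptor CD23 of mature follicular B cells, measured 0, 0.0954, 0.216 and 0.0381 CPM in TLR7, 3.59, 1.14, 7.7 and 0.537 CPM in TLR2 and 4.72, 17, 6.31 and 8.57 CPM in OVA libraries. Fcmr, the receptor for IgM, measured 0.0879, 0.286, 0.908 and 1.03 CPM in TLR7, 5.05, 1.01, 9.37 and 2.15 CPM in TLR2 and 8.22, 17.9, 11.8 and 15.6 CPM in OVA libraries. The TLR7 libraries of both genes lay below every OVA library, and for Fcer2a also below every TLR2 library. The log2 differences from OVA were -6.65 ± 1.38 for Fcer2a (adjusted p = 0.0461 by edgeR) and -4.46 ± 0.74 for Fcmr (adjusted p = 0.0283 by edgeR). In TLR7 libraries 1, 2 and 4 Fcer2a lay under the level of 3 counts (0.132, 0.286 and 0.114 CPM). The size of its difference is thus uncertain. Fcmr measured 0.908 and 1.03 CPM in the TLR7 libraries between the times, against 8.22 and 11.8 CPM in the OVA libraries between the times. In the remaining libraries it measured 0.0879 and 0.286 CPM in TLR7, against 17.9 and 15.6 CPM in OVA. The calls of Cd79b and Fcmr were lost on leaving out either OVA replicate 2, OVA replicate 4, TLR7 replicate 1 or TLR7 replicate 2 (adjusted p 0.0945 to 0.124), and that of Fcer2a without any library of these groups other than TLR7 replicate 3 (adjusted p 0.0616 to 0.215). Without OVA replicate 2, the library with high Lyz2 and S100a8, the log2 differences were -2.07 for Cd79b, -6.19 for Fcer2a and -4.31 for Fcmr, none past the threshold. All 3 were lost without the 5 shallow libraries and all 3 were called without the 8 libraries between the times.

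The other surface proteins lay between these extremes. Ms4a1, which encodes CD20, measured 3.82, 4.29, 1.51 and 2.21 CPM in TLR7, 19.1, 28.6, 26.9 and 19.1 CPM in TLR2 and 13, 49.4, 15.5 and 26.4 CPM in OVA libraries. Cd22, an inhibitory lectin, measured 9.45, 8.2, 4.15 and 4.27 CPM in TLR7, 17.1, 23.1, 22.3 and 20.9 CPM in TLR2 and 11, 22.5, 10.1 and 22.4 CPM in OVA libraries. Fcrl1, an Fc receptor-like protein of the B cell surface, measured 3.82, 3.24, 1.64 and 2.32 CPM in TLR7, 8.94, 6.91, 9.53 and 8.68 CPM in TLR2 and 5.12, 14.3, 4.83 and 11.4 CPM in OVA libraries. All TLR7 libraries of these 3 genes were below all OVA and TLR2 libraries, with log2 differences from OVA of -3.16 ± 0.92, -1.34 ± 0.82 and -1.69 ± 0.69 in that order, none past the threshold. Fcrla, an intracellular Fc receptor homologue, measured 0.835, 1.05, 0.389 and 0.648 CPM in TLR7, 3.97, 1.94, 5.58 and 2.86 CPM in TLR2 and 3.86, 6.54, 2.6 and 8.4 CPM in OVA libraries. Siglecg, an inhibitory lectin, measured 1.93, 2, 0.778 and 1.33 CPM in TLR7, 3.68, 3.17, 5.21 and 2.95 CPM in TLR2 and 3.46, 5.36, 3.42 and 6.45 CPM in OVA libraries. Cr2, the complement receptor CD21, measured 0.923, 1.14, 0.303 and 0.229 CPM in TLR7, 1.92, 3.12, 2 and 1.79 CPM in TLR2 and 1.06, 2.54, 0.866 and 1.77 CPM in OVA libraries. Fcrla and Siglecg were lower in every TLR7 than in any OVA library, whereas Cr2 overlapped. Cd72 averaged 7.2 ± 1.9 CPM in TLR7, 12.9 ± 2 CPM in TLR2 and 12.6 ± 3.73 CPM in OVA libraries (SD, n = 4), with 1 TLR7 library just inside the OVA range.

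Transcription factors also differed among themselves. Spib, an Ets factor, measured 0.923, 1.43, 0.346 and 0.648 CPM in TLR7, 6.22, 3.74, 6.72 and 5.19 CPM in TLR2 and 4.17, 10.4, 3.09 and 7.51 CPM in OVA libraries, and all TLR7 libraries were below all others. Pax5 measured 11.6, 11.4, 5.54 and 4.99 CPM in TLR7, 18, 32.5, 21.3 and 23.4 CPM in TLR2 and 11.5, 21.1, 12.5 and 19.9 CPM in OVA libraries. TLR7 library 1 of this lineage factor just passed the lowest OVA library, and the difference of -0.96 ± 0.75 missed the threshold. Pou2af1, the B cell coactivator of octamer factors, measured 41.6, 37.1, 17.7 and 20.3 CPM in TLR7, 48.1, 35.8, 50.5 and 35.3 CPM in TLR2 and 23.8, 67.9, 30.2 and 58.2 CPM in OVA libraries. Pou2f2, the octamer factor OCT2, measured 24.6, 21.9, 25 and 24.4 CPM in TLR7, 48.9, 32.3, 40.8 and 41.7 CPM in TLR2 and 32.7, 42.3, 32 and 50.4 CPM in OVA libraries. The TLR7 libraries of Pou2f2 were all below OVA, by 0.71 ± 0.26 on the log2 scale, short of the threshold, and those of Pou2af1 overlapped OVA. Ebf1 measured 2.24, 4.29, 1.43 and 2.59 CPM in TLR7, 5.39, 9.29, 4.72 and 6 CPM in TLR2 and 3.34, 3.64, 3.3 and 3.98 CPM in OVA libraries. Ebf1 was lower in all TLR7 libraries than in any TLR2 library and overlapped OVA. Mef2c, a MADS-box factor, measured 4.57, 7.53, 2.16 and 3.73 CPM in TLR7, 6.72, 13, 9.2 and 8.68 CPM in TLR2 and 4.56, 10.5, 5.65 and 8.84 CPM in OVA libraries. Bcl11a, a zinc finger factor needed for early B cells in mice, measured 1.45, 1.34, 0.389 and 0.686 CPM in TLR7, 3.51, 4.58, 3.22 and 3.76 CPM in TLR2 and 1.65, 3.77, 1.73 and 3.62 CPM in OVA libraries. Hhex, a homeobox factor, measured 1.23, 1.24, 0.649 and 0.381 CPM in TLR7, 1.25, 2.38, 1.43 and 2.15 CPM in TLR2 and 0.826, 1.86, 0.619 and 1.77 CPM in OVA libraries. Of these last 3, only Bcl11a had no TLR7 library inside the OVA range.

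Receptors for survival, help and homing signals ranged from lower in every TLR7 library to level with OVA. Tnfrsf13c, the BAFF receptor, measured 2.77, 2.77, 5.19 and 2.13 CPM in TLR7, 7.69, 7.13, 8.35 and 6.44 CPM in TLR2 and 4.96, 12.5, 3.8 and 7.69 CPM in OVA libraries. Cxcr5, the receptor that guides cells to follicles, measured 4.39, 5.34, 2.42 and 4.92 CPM in TLR7, 8.9, 14.1, 10.9 and 10.4 CPM in TLR2 and 9.09, 15.9, 7.26 and 11.9 CPM in OVA libraries. Cd40 measured 4.61, 3.53, 1.56 and 1.98 CPM in TLR7, 6.98, 8.49, 8.43 and 7.61 CPM in TLR2 and 4.17, 11.7, 3.67 and 8.13 CPM in OVA libraries. TLR7 libraries of Cxcr5 were below all OVA libraries (log2 difference -1.37 ± 0.33, adjusted p = 0.0787 by edgeR), and Tnfrsf13c and Cd40 overlapped. Cd180, a TLR-like receptor, measured 1.1, 1.43, 0.562 and 0.8 CPM in TLR7, 3.05, 3.3, 3.38 and 4.83 CPM in TLR2 and 2.52, 7.41, 1.86 and 5.83 CPM in OVA libraries. Tnfrsf13b, which encodes TACI, measured 14.3, 14.5, 14.9 and 22.3 CPM in TLR7, 14.2, 20.9, 17.2 and 18.7 CPM in TLR2 and 20.8, 16.9, 18.4 and 11.9 CPM in OVA libraries. Cd180 was lower in every TLR7 library than in any OVA library, whereas Tnfrsf13b overlapped between all groups (log2 difference -0.04 ± 0.18). Ly6d, a surface marker of early B lineage commitment, measured 8.04, 3.91, 2.64 and 4.53 CPM in TLR7, 6.68, 4, 8.63 and 7.07 CPM in TLR2 and 5.47, 14.1, 5.53 and 9.01 CPM in OVA libraries. Vpreb3, a surrogate light chain family gene, measured 0, 0.0954, 0.303 and 0.495 CPM in TLR7, 0.167, 0.044, 0.244 and 0.179 CPM in TLR2 and 0.669, 0.318, 0.495 and 0.354 CPM in OVA libraries. Ralgps2, an exchange factor for Ral, averaged 14 ± 1.01 CPM in TLR7, 17.2 ± 2.17 CPM in TLR2 and 17.4 ± 2.59 CPM in OVA libraries (SD, n = 4). TLR7 and OVA overlapped in all of these last 3 genes.

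**Figure D2:**
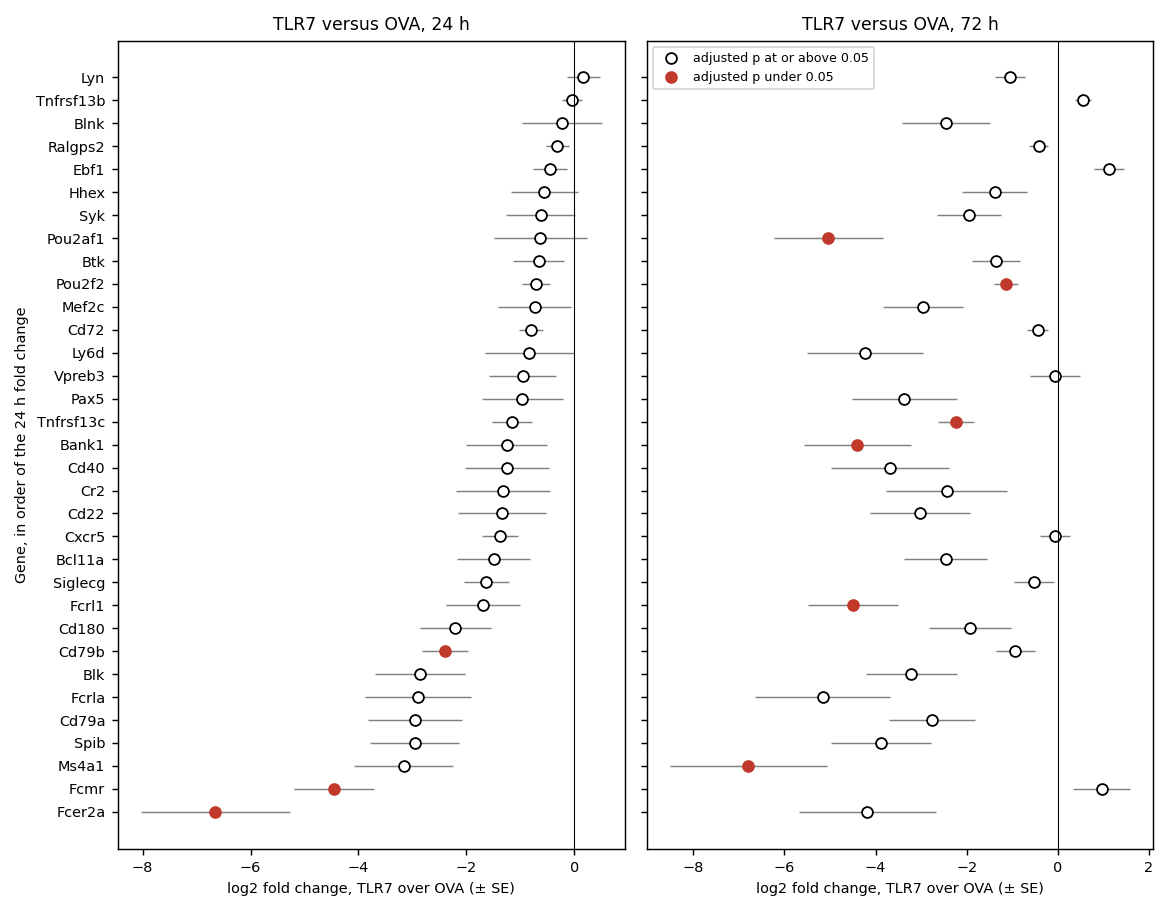
Log2 fold change of each gene, TLR7 over OVA (± SE), at 24 h and 72 h, in order of the 24 h value, with filled points for genes past the threshold. At 24 h values ran from 0.17 (Lyn) to -6.65 (Fcer2a, under or near the level of 3 counts in each TLR7 library). At 72 h Ms4a1, Cr2, Fcrla and Cd40 held 3 counts or fewer over all TLR7 libraries. Their fitted values thus depend on the prior count.

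No member was called between TLR2 and OVA at 24 h, where 0% of all genes were called either way by edgeR. At an unadjusted p under 0.05, 3 members and 2211 genes differed, and DESeq2 called 0 members and 350 genes. The median log2 difference of the members was 0.03, against -0.01 over all genes. Ebf1 was higher in every TLR2 library than in any OVA library, by 0.83 ± 0.32, and Vpreb3 was lower in every TLR2 library, with a log2 difference of -1.53 ± 0.66, neither past the threshold. Fcmr, at -1.59 ± 0.63, had the lowest fitted value. Both immunoglobulin receptors were uneven among the TLR2 libraries, where Fcer2a stood at 1.14 and 0.537 CPM in libraries 2 and 4 and at 3.59 and 7.7 CPM in libraries 1 and 3.

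Between TLR7 and TLR2 at 24 h, Fcmr, Ebf1 and Cxcr5 were lower in TLR7, 3 calls against 0.604% of all genes called lower. Their log2 differences were -2.86 ± 0.71, -1.29 ± 0.32 and -1.38 ± 0.33 (adjusted p = 0.0481, 0.0491 and 0.0415 by edgeR). For 25 members every TLR7 library lay below every TLR2 library, against 8.51% of all genes. The TLR7 group held 2 libraries between the times and the TLR2 group none, so a value within that side of the split could not be had. Without the 8 such libraries Fcmr stayed called (-4.72), with Cd79b, Cd72 and Tnfrsf13c, and Ebf1 (-0.92, adjusted p = 0.347 by edgeR) and Cxcr5 (-1.13, adjusted p = 0.17 by edgeR) did not. The calls were few under single omissions, with 0 called without any of TLR2 replicates 1, 3 and 4 or TLR7 replicates 3 and 4, 1 without TLR2 replicate 2 or TLR7 replicate 1, and 2 without TLR7 replicate 2.

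At 72 h most members were at their lowest in the TLR7 libraries. For 28 of the 33 members the lowest of the 6 group means was that of TLR7 at 72 h, and 22 had a mean under 1 CPM there. Summed over the members, the level was 80 to 96.9 CPM in TLR7 libraries, 287, 97.5, 233 and 163 CPM in TLR2 libraries 1 to 4, and 94.2, 92.6, 204 and 203 CPM in OVA libraries 1 to 4. OVA libraries 1 and 2 and TLR2 library 2 thus lay near the TLR7 level, while OVA library 3 was the one with macrophage markers and OVA library 4 and TLR2 libraries 1, 3 and 4 lay between the times. The TLR7 group held no library between the times at 72 h, so a value within that side of the split could not be had.

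Against OVA at 72 h, 6 members were lower in TLR7 (Ms4a1, Fcrl1, Bank1, Pou2af1, Pou2f2 and Tnfrsf13c), against 3.21% of all genes called lower. The median log2 difference of the members was -2.44 (-2.45 with the 4 members of 3 counts or fewer set to their ratio of summed counts), against -0.08 over all genes. The TLR7 libraries lay below all OVA libraries for 6 members (those called, with Fcer2a in place of Bank1), against 5.29% of all genes. Without OVA replicate 1 there were 17 calls and without OVA replicate 2 there were 10, while there were 4 without OVA replicate 3, 3 without TLR7 replicate 3, and 1 without OVA replicate 4 or TLR7 replicate 1, 2 or 4. Without the 8 libraries between the times and without OVA replicate 3, an alternative chosen after the data were seen, Fcrl1 (-2.18 ± 0.46) and Tnfrsf13c (-1.95 ± 0.31) were the 2 calls. Tnfrsf13c was also the 1 member whose call stood under each single omission.

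Tnfrsf13c measured 0.854, 1.49, 1.21 and 1.02 CPM in TLR7, 4.62, 1.61, 3.34 and 1.97 CPM in TLR2 and 2.95, 5.96, 6.05 and 6.61 CPM in OVA libraries. Fcrl1 measured 0, 0.0826, 0.0897 and 0.114 CPM in TLR7, 6.17, 0.306, 3.42 and 2.01 CPM in TLR2 and 0.421, 0.38, 1.77 and 5.26 CPM in OVA libraries. In both genes all TLR7 libraries lay below all others, by 2.23 ± 0.40 and 4.49 ± 0.99 on the log2 scale relative to OVA (adjusted p = 0.0053 and 0.0136 by edgeR). Each TLR7 value of Fcrl1 was at or under the level of 3 counts (0.285, 0.248, 0.135 and 0.114 CPM). The size of the Fcrl1 difference is thus uncertain. Ms4a1 measured 0, 0, 0.0448 and 0 CPM in TLR7, 12.6, 0.115, 10.2 and 2.85 CPM in TLR2 and 0.168, 0.127, 2.28 and 6.14 CPM in OVA libraries, and 1 count in all made up the TLR7 value, a ratio to OVA of 0.00628 (95% exact interval 0.000158 to 0.0354, counting error only). OVA libraries 1 and 2 were close to that floor as well. Pou2af1 measured 0.285, 0.413, 0.224 and 0.341 CPM in TLR7, 36.2, 0.383, 20 and 22 CPM in TLR2 and 0.547, 0.887, 8.01 and 32.1 CPM in OVA libraries. Pou2f2 measured 12.8, 9.42, 16.8 and 9.1 CPM in TLR7, 38.8, 19.4, 31.4 and 24.2 CPM in TLR2 and 17.4, 20.8, 24.3 and 43.5 CPM in OVA libraries. Pou2af1 fell by 5.04 ± 1.2 and Pou2f2 by 1.14 ± 0.27 (adjusted p = 0.0227 and 0.0204 by edgeR), the first with OVA library 4 far above the rest. Bank1 measured 0, 0.165, 0.0448 and 0.0379 CPM in TLR7, 5.92, 0.153, 6.84 and 2.34 CPM in TLR2 and 0.126, 0.296, 1.82 and 3.03 CPM in OVA libraries, with TLR7 library 2 above the lowest OVA library (log2 difference -4.40 ± 1.18, adjusted p = 0.0413 by edgeR). Every TLR7 value of Bank1 was also under the level of 3 counts, so the size of its difference is uncertain too.

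The receptor chains stood at different levels at this time. Cd79a measured 1.42, 0.661, 0.807 and 0.303 CPM in TLR7, 14.4, 0.306, 7.15 and 3.18 CPM in TLR2 and 1.22, 0.211, 12.7 and 6.45 CPM in OVA libraries. Cd79b measured 5.03, 3.55, 4.53 and 2.99 CPM in TLR7, 16.4, 4.48, 9.92 and 5.23 CPM in TLR2 and 4.92, 3.89, 12.3 and 9.48 CPM in OVA libraries. Cd79b thus held 2.99 to 5.03 CPM in the TLR7 libraries, within reach of OVA libraries 1 and 2, whereas Cd79a was at or under 1.42 CPM in all TLR7 libraries. Neither passed the threshold against OVA (-0.93 ± 0.42 and -2.76 ± 0.94 for Cd79b and Cd79a in that order). Among kinases and adaptors, Lyn measured 2.47, 1.65, 2.51 and 2.84 CPM in TLR7, 6.41, 3.71, 7.1 and 7.49 CPM in TLR2 and 2.82, 3.68, 8.37 and 4.9 CPM in OVA libraries. Syk measured 1.9, 1.74, 1.44 and 1.4 CPM in TLR7, 10.5, 0.995, 12.9 and 6.98 CPM in TLR2 and 1.68, 0.76, 16.6 and 5.74 CPM in OVA libraries. For both kinases TLR7 overlapped the lowest OVA libraries. Btk measured 1.33, 0.992, 0.942 and 0.644 CPM in TLR7, 4.04, 0.536, 3.29 and 3.25 CPM in TLR2 and 1.01, 1.82, 3.37 and 3.67 CPM in OVA libraries. Blnk measured 0.285, 0.331, 0.135 and 0.152 CPM in TLR7, 3.6, 0.115, 3.94 and 4.86 CPM in TLR2 and 0.21, 0.0422, 2.96 and 1.43 CPM in OVA libraries. OVA library 3, with the macrophage markers, was the highest OVA library for Lyn, Syk and Blnk, genes that macrophages can express, and its part in those values was not tested. Blk averaged 0.105 ± 0.0928 CPM in TLR7, 1.29 ± 1.6 CPM in TLR2 and 1.18 ± 1.35 CPM in OVA libraries (SD, n = 4).

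Among the other surface genes, Cd22 measured 0.38, 0.165, 0.314 and 0.114 CPM in TLR7, 11.8, 0.115, 12.4 and 5.67 CPM in TLR2 and 0.168, 0.127, 1.64 and 5.7 CPM in OVA libraries. Fcer2a measured 0, 0.0826, 0.0448 and 0.0758 CPM in TLR7, 3.35, 0.0383, 0.217 and 0 CPM in TLR2 and 0.463, 0.0845, 1.87 and 1.99 CPM in OVA libraries. Fcrla measured 0.0949, 0, 0.0448 and 0 CPM in TLR7, 4.29, 0.115, 1.21 and 0.548 CPM in TLR2 and 0.0421, 0, 2.82 and 2.07 CPM in OVA libraries. For all 3 the TLR7 libraries were at or under 0.38 CPM and so were OVA library 2 and TLR2 library 2. Cr2 measured 0.19, 0, 0 and 0.0379 CPM in TLR7, 1.27, 0, 0.347 and 0.366 CPM in TLR2 and 0, 0, 0.546 and 0.518 CPM in OVA libraries. Siglecg measured 0.665, 0.661, 0.897 and 0.758 CPM in TLR7, 4.33, 1.45, 1.99 and 1.46 CPM in TLR2 and 0.589, 0.591, 1.14 and 2.03 CPM in OVA libraries. Cd72 averaged 8.76 ± 1.37 CPM in TLR7, 10.3 ± 1.91 CPM in TLR2 and 11.9 ± 2.65 CPM in OVA libraries (SD, n = 4), and TLR7 and OVA overlapped. Cr2 and Fcrla held 3 and 2 counts over the TLR7 libraries, ratios to OVA of 0.159 (95% exact interval 0.0307 to 0.521) and 0.0231 (0.00276 to 0.0852), counting error only. Of the receptors for help and for TLR-like signals, Cd40 and Cd180 were at or under 0.248 CPM in all TLR7 libraries, near the level of 3 counts (0.11 to 0.286 CPM, depending on the library). Cd40 measured 0, 0, 0.0897 and 0.0379 CPM in TLR7, 3.19, 0.0765, 4.55 and 1.61 CPM in TLR2 and 0.0842, 0, 0.683 and 1.59 CPM in OVA libraries. For Cd40 the 3 counts over the TLR7 libraries gave a ratio to OVA of 0.0698 (0.014 to 0.214). Cd180 measured 0.0949, 0.248, 0 and 0.114 CPM in TLR7, 2.37, 0.191, 1.73 and 0.877 CPM in TLR2 and 0.0421, 0.211, 0.819 and 0.558 CPM in OVA libraries. Cxcr5, by contrast, measured 2.37, 5.04, 5.34 and 2.24 CPM in TLR7, 8.05, 5.2, 8.58 and 4.42 CPM in TLR2 and 3.75, 2.7, 4.96 and 4.26 CPM in OVA libraries, and TLR7 and OVA overlapped throughout.

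Among transcription factors, Ebf1 differed from the rest. Pax5 measured 0.38, 0.0826, 0.0897 and 0.0379 CPM in TLR7, 11.2, 0.115, 11.1 and 5.67 CPM in TLR2 and 0.126, 0.211, 1.64 and 3.11 CPM in OVA libraries. Spib measured 0.0949, 0, 0.0897 and 0.0758 CPM in TLR7, 3.31, 0.0383, 1.69 and 0.585 CPM in TLR2 and 0.379, 0.0845, 2.23 and 1.71 CPM in OVA libraries. Both were at or under 0.38 CPM in every TLR7 library, as they were in OVA libraries 1 and 2. Mef2c measured 0.0949, 0.331, 0.135 and 0.303 CPM in TLR7, 5.6, 0.268, 4.55 and 3.07 CPM in TLR2 and 0.252, 0.338, 4.1 and 2.39 CPM in OVA libraries. Bcl11a measured 0.0949, 0.165, 0.0897 and 0.0758 CPM in TLR7, 1.76, 0.0383, 1.69 and 0.622 CPM in TLR2 and 0.0421, 0.296, 0.91 and 1.08 CPM in OVA libraries. Hhex measured 0.76, 0.248, 0.0448 and 0.227 CPM in TLR7, 0.94, 0.23, 0.736 and 0.622 CPM in TLR2 and 0.252, 0.253, 1.82 and 0.717 CPM in OVA libraries. In these 3 genes TLR7 libraries overlapped OVA libraries 1 and 2. Ebf1 measured 3.04, 2.23, 3.18 and 2.35 CPM in TLR7, 3.64, 2.3, 4.25 and 3.33 CPM in TLR2 and 1.73, 0.76, 1.64 and 0.797 CPM in OVA libraries. All TLR7 and all TLR2 libraries of Ebf1 were above all OVA libraries, by 1.13 ± 0.33 and 1.45 ± 0.33, short of the threshold (adjusted p = 0.0561 and 0.163 by edgeR). For Pax5, by contrast, TLR7 and OVA overlapped.

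Fcmr and Tnfrsf13b were likewise higher in TLR7 than in OVA in all libraries. Fcmr measured 7.98, 6.78, 6.05 and 5.99 CPM in TLR7, 8.74, 2.22, 2.25 and 1.54 CPM in TLR2 and 4.97, 1.06, 3.32 and 4.34 CPM in OVA libraries. Tnfrsf13b measured 31, 25.2, 27.7 and 28.4 CPM in TLR7, 20.6, 26.9, 24.2 and 20.8 CPM in TLR2 and 22.6, 19.8, 19.8 and 14.5 CPM in OVA libraries. The log2 differences from OVA were 0.96 ± 0.63 and 0.55 ± 0.18, neither past the threshold. Vpreb3 measured 0.76, 0.579, 1.03 and 0.872 CPM in TLR7, 0.572, 0.995, 0.563 and 0.366 CPM in TLR2 and 1.14, 1.23, 0.774 and 0.319 CPM in OVA libraries. Ly6d measured 0, 0, 0.0897 and 0.114 CPM in TLR7, 4, 0, 2.99 and 3.62 CPM in TLR2 and 0.168, 0.0422, 3.6 and 1.67 CPM in OVA libraries. Ly6d was at or under 0.114 CPM in each TLR7 library, while Vpreb3 overlapped between all groups. Ralgps2 averaged 13.5 ± 1.58 CPM in TLR7, 14.4 ± 0.959 CPM in TLR2 and 18 ± 8.31 CPM in OVA libraries (SD, n = 4), where OVA library 3 held 30.4 CPM.

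No member was called between TLR2 and OVA at 72 h, with 0% of all genes called either way by edgeR, 8 members and 1693 genes at an unadjusted p under 0.05, and 1 member and 83 genes by DESeq2. Fitted values were above 0 for 27 of 33. Without OVA replicate 4, 4 members were called. Between TLR7 and TLR2 at 72 h, 17 members were lower in TLR7, against 3.94% of all genes, and for 7 all TLR7 libraries lay below all TLR2 libraries, against 10.7% of all genes. Pax5 fell by 5.82 ± 1.11 and Cd22 by 4.99 ± 1.10 (adjusted p = 0.0154 and 0.0195 by edgeR), and Lyn by 1.37 ± 0.33. Without the 8 libraries between the times 0 members were called and the direction turned for 6, among them Pax5 (0.06) and Cd22 (1.00), with TLR2 library 2 the one left in its group and assumed to vary like the other groups. The count was 24 without TLR2 replicate 2, 5, 9 and 0 without TLR2 replicates 3, 4 and 1, and 11 without TLR7 replicate 3, and it was 0 without TLR7 replicate 1, 2 or 4.

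**Figure D3:**
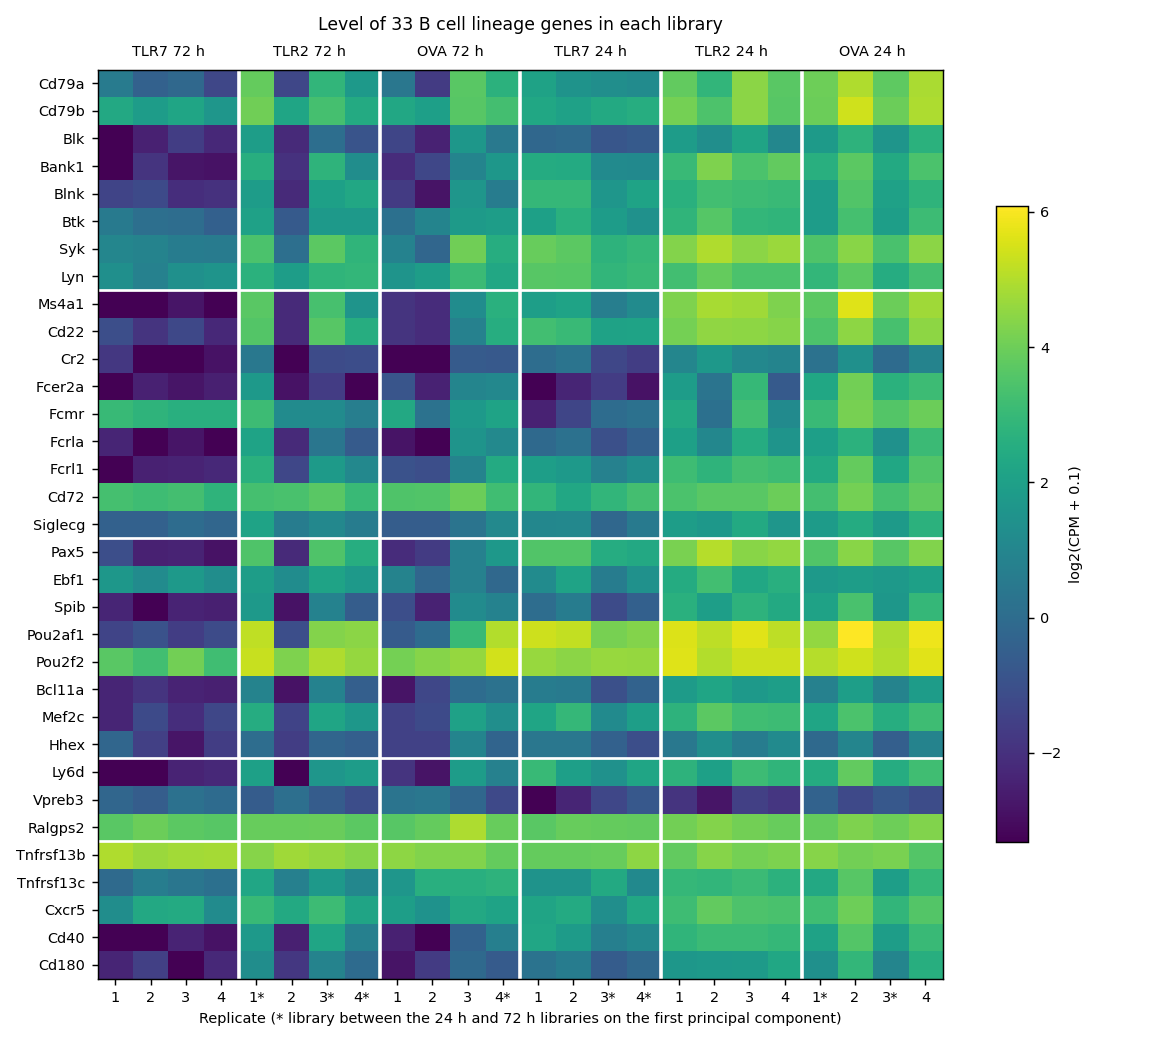
Level of the 33 genes (log2 of CPM + 0.1) in each of the 24 libraries, grouped by role (receptor complex, coreceptors and Fc receptors, transcription factors, others, and survival and homing receptors), with stars on the libraries between the times. Rows such as Pax5, Ms4a1 and Cd40 are dark across TLR7 at 72 h and in OVA libraries 1 and 2 and TLR2 library 2 of that time, while Tnfrsf13b, Ralgps2, Cd72 and Pou2f2 stay bright.

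Over time, the members past the test were mostly lower at 72 h than at 24 h. In TLR7, 20 members were lower and 3 higher at 72 h than at 24 h, against 24.2% of all genes called lower and 19% called higher. Pax5 averaged 0.148 ± 0.157 CPM at 72 h and 8.38 ± 3.61 CPM at 24 h (SD, n = 4). Pou2af1 averaged 0.316 ± 0.0806 CPM at 72 h and 29.2 ± 11.9 CPM at 24 h, Blnk 0.225 ± 0.0971 and 5.57 ± 2.31 CPM, and Lyn 2.37 ± 0.506 and 9.96 ± 2.74 CPM, in the same order of times. The log2 changes were -6.07 ± 1.11 for Pax5, -6.53 ± 1.23 for Pou2af1, -4.71 ± 0.97 for Blnk and -2.06 ± 0.33 for Lyn, with adjusted p of 0.000893, 0.000994, 0.0016 and 0.000514 by edgeR. Fcmr, Vpreb3 and Tnfrsf13b rose, by 3.45 ± 0.72, 1.76 ± 0.61 and 0.77 ± 0.18. The count of 23 was between 19 and 24 under single omissions, and 0 without the 5 shallow libraries, where the smallest adjusted p among those 23 was 0.0775.

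In OVA, 18 members were lower at 72 h than at 24 h and none was higher, against 10.4% of all genes called lower. Ms4a1 averaged 2.18 ± 2.82 CPM at 72 h and 26.1 ± 16.6 CPM at 24 h (SD, n = 4). The changes ran from -1.49 for Cxcr5 to -3.66 for Pax5. Tnfrsf13b (0.17 ± 0.18), Ralgps2 (0.05 ± 0.20), Cd72 (-0.09 ± 0.23) and Tnfrsf13c (-0.42 ± 0.37) were among those not called. The count was 30 without the 8 libraries between the times, of which 28 were lower and 2 higher, and 32 without OVA replicate 3 at 72 h as well, of which 30 were lower and 2 higher. The 10.4% belongs to the fit of all libraries. Shares of all genes with these libraries left out are not given here, so these counts cannot be set against it. It was 0 without OVA replicate 2 or 4 at 24 h or replicate 2 or 3 at 72 h, and 4 without replicate 1 at 72 h. In TLR2, 6 members were lower (Ebf1, Btk, Spib, Tnfrsf13c, Bcl11a and Lyn) and Vpreb3 was higher, against 17.4% of all genes called lower and 21.7% called higher. The share of members called lower in TLR2 was thus near that of all genes. Fitted changes in TLR2 were nonetheless below 0 for 31 of the 33, with a median of -1.36, against -0.01 over all genes. In TLR2, 28 members were called without the 8 libraries between the times. With single omissions the count of 7 was 0 without TLR2 replicate 2 at 72 h, 1, 3, 4 and 4 without replicates 2, 4, 1 and 3 at 24 h, 4 and 9 without replicates 4 and 3 at 72 h, and 12 without replicate 1 at 72 h. The 17.4% and 21.7% likewise belong to the fit of all libraries.

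The change of the TLR7 effect with time was called for Fcmr alone among the members, against 0.11% of all genes called higher. Its TLR7 minus OVA difference was larger at 72 h than at 24 h by 5.42 ± 0.96 on the log2 scale (adjusted p = 0.0171 by edgeR). Its TLR7 libraries were all below OVA at 24 h and all above OVA at 72 h. The adjusted p was 0.0525 without OVA replicate 2 at 72 h and 0.0558 without TLR7 replicate 4 at 72 h (edgeR), so that no member was called there, and 3 were called without OVA replicate 1 at 72 h. Without the 8 libraries between the times the value was 7.78 (adjusted p = 0.0286 by edgeR). Cd79b was a second call without those 8 and without OVA replicate 3 at 72 h (2.91 ± 0.45). For the TLR2 effect, 0% of all genes were called by edgeR, with 2 members and 919 genes at an unadjusted p under 0.05 and 0 members and 2 genes by DESeq2.

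Which genes moved together was described by setting each level against the sum of Cd79a and Cd79b in the same library. Across the 24 libraries 23 of the other 31 members varied less as this ratio than as a level (SD of log2 values with 0.1 CPM added). The 8 that varied more or equally were Ebf1, Pou2f2, Vpreb3, Cd72, Ralgps2, Tnfrsf13b, Cxcr5 and Lyn. The same share over all genes was not computed. Some of the 23 still spread widely as ratios, such as Ms4a1 (SD 1.96) and Pou2af1 (2.0), and Fcmr barely varied less (1.58, against 1.68 as a level). Without the 8 libraries between the times the count was again 23, but of a different set. Fcmr (1.84 as a level and 1.9 as a ratio) then varied more, and Lyn (1.06 and 0.99) less. With the sum of Ms4a1 and Pax5 in place of Cd79a and Cd79b, 17 of 31 varied less across the 24 libraries. Cd79b itself then varied more as a ratio (SD 2.33) than as a level (1.05). Fcmr, Btk, Tnfrsf13c, Siglecg and Hhex, which varied less against the first pair, varied more against this one, so the grouping depends on the pair. Ralgps2 and Tnfrsf13b had the smallest spread as levels (SD 0.29 and 0.36), and their spread as ratios to Cd79a and Cd79b was 1.17 and 1.54. At 24 h the ratio of Fcer2a was 0.0118 in TLR7 and 0.186 in OVA, and that of Fcmr was 0.0755 in TLR7 and 0.294 in OVA, the 2 members whose TLR7 libraries all lay below the OVA ratio, against 0.0481% of all genes. The ratio of Ms4a1 (0.382 in TLR7 and 0.515 in OVA), Spib, Blk and Fcrla overlapped between TLR7 and OVA. For 20 members the TLR7 ratio was higher in all libraries, led by Lyn (1.28 in TLR7 and 0.19 in OVA) and Blnk (0.717 in TLR7 and 0.131 in OVA). The pair itself was lower in TLR7, and 83.2% of all tested genes were higher as ratios in every TLR7 library. Set against Ms4a1 and Pax5, 15 of 31 members were higher in every TLR7 library, against 60.9% of all genes, and 6 were lower, against 0.13% of all genes, the 6 being Cd79a, Fcer2a, Fcmr, Fcrla, Blk and Spib.

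**Figure D4:**
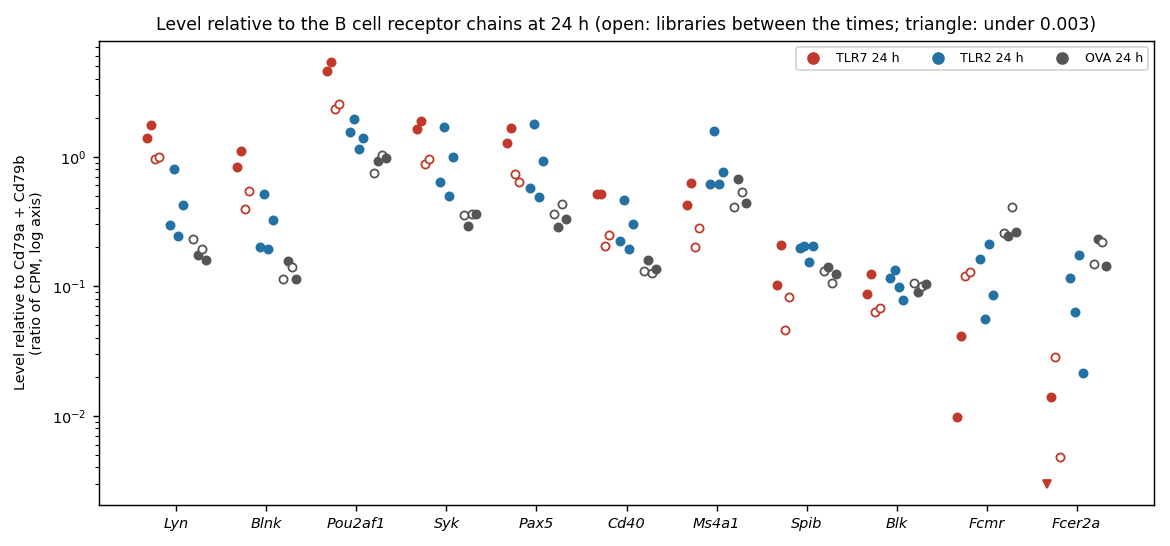
Level of 11 genes relative to the sum of Cd79a and Cd79b at 24 h (ratio of CPM, log axis) in each library, with open points for the libraries between the times and a triangle for a value under 0.003. Lyn and Blnk ran from 0.394 to 1.76 in TLR7 and from 0.113 to 0.231 in OVA, while Fcer2a was at or under 0.0286 in TLR7 and at least 0.143 in OVA.

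Per kilobase of exon, which allows genes to be compared, the order of levels also changed. In TLR7 at 72 h the first members were Tnfrsf13b (9.91 CPM per kb), Fcmr (3.86), Cd79b (2.81) and Cd72 (2.56). In OVA at 24 h they were Cd79b (18.2 CPM per kb), Pou2af1 (17.7), Cd79a (15.4) and Ly6d (11.5). Within TLR7 at 24 h, Pou2af1 (11.4 CPM per kb) and Ly6d (6.43) stood ahead of Cd79b (3.45). Exons of Cd22, Pax5, Cd72, Cxcr5, Bcl11a, Cd180 and Lyn overlap a gene on the other strand in GENCODE M21, and since the strand setting of the counting was not given, reads of such partners cannot be told apart from theirs.

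Other genes of B cell receptor signalling were set beside the 33. Of 18 such genes, 0 were called between TLR7 and OVA at 24 h, with a median log2 difference of -0.22, and T cells use several of them. At 72 h Vav3 (-2.08 ± 0.29), a guanine nucleotide exchange factor, and Ptpn6 (-0.97 ± 0.24), the phosphatase SHP-1, were lower in TLR7 than in OVA. Of 9 tested plasma cell genes, 0 were called at 24 h. Jchain, the joining chain of secreted antibody, and Sdc1 (-2.59 ± 0.49), which encodes CD138, were lower in TLR7 than in OVA at 72 h. Jchain measured 0 to 0.19 CPM in TLR7 and 0.21, 0.0845, 22.6 and 9.8 CPM in OVA libraries. OVA libraries 1 and 2 thus lay near the TLR7 level of Jchain. Of 11 CD8 T cell genes 0 were called between TLR7 and OVA at either time, and likewise 0 of 5 CD4 T cell and 0 of 3 tested neutrophil genes. At 24 h none of the macrophage, dendritic cell, plasmacytoid or NK cell genes was called. Ccl22, a chemokine of dendritic cells, nonetheless measured 0.0865 to 0.724 CPM in TLR7, 7.34 to 12.8 CPM in TLR2 and 5.12 to 30.9 CPM in OVA libraries at 24 h (adjusted p = 0.0798 for TLR7 versus OVA by edgeR). The dendritic cell list summed to 7.63 to 34 CPM in TLR7 (median 15.4), 19.7 to 28.3 CPM in TLR2 (median 23.7) and 30.9 to 100 CPM in OVA libraries (median 47.1). The neutrophil list summed to 0.778 to 6.39 CPM in TLR7 (median 2.14), 2.08 to 15.4 CPM in TLR2 (median 5.78) and 1.94 to 107 CPM in OVA libraries (median 10.5). Median sums of both lists were thus lower in TLR7 than in OVA at 24 h, as the level of the 33 genes was, though their ranges overlapped. S100a8 alone held 39.9 CPM in OVA library 2. Macrophage (10.3 and 13.1 CPM), NK cell (103 and 128), CD8 T cell (3180 and 3930) and other receptor signalling lists (913 and 1020) also had lower medians in TLR7. Plasmacytoid (111 in TLR7 and 84.9 CPM in OVA), plasma cell (1460 and 1010) and CD4 T cell lists (478 and 307) had higher ones. Defining markers on these lists did not follow the sums. Medians in TLR7 and OVA were 0.52 and 1.63 CPM for Cd4, 0.0216 and 0.451 CPM for Siglech, and 2.84 and 4.72 CPM for Sdc1. Jchain (18.6 and 18.5 CPM) and Mzb1 (2.79 and 2.79 CPM) were level. Other genes of the lists thus made up the higher sums. The part of any of these cells in the 24 h differences was not tested. Between TLR7 and OVA at 72 h, 2 of 6 tested macrophage genes (Adgre1 and Csf1r), 1 of 7 dendritic cell genes (Zbtb46), 2 of 6 plasmacytoid genes (Ccr9 and Pacsin1) and 1 of 6 NK cell genes (Eomes) were lower in TLR7. The summed dendritic cell list was nonetheless higher there, at 108 to 182 CPM in TLR7 (median 133), 32.2 to 50.7 CPM in TLR2 (median 41.6) and 20.2 to 115 CPM in OVA libraries (median 22.1). Batf3, a factor that activated T cells also express, made up most of that sum, with 137 ± 32.7 CPM in TLR7 and 36.8 ± 49.3 CPM in OVA libraries (SD, n = 4), and was not called.

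The macrophage list, set beside the 72 h comparison because of OVA library 3, summed to 3.83 to 7.89 CPM in TLR7, 8.42 to 12.9 CPM in TLR2 and 5.77 to 79.1 CPM in OVA libraries. C1qa, a defining marker, was at 0 in 3 TLR7, 2 TLR2 and 1 OVA library of that time. The part of these cells in the members' values was not tested, beyond the values given without that library.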

How the data were processed

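RNA of 24 libraries, 4 in each of 6 groups, was made with a TruSeq stranded mRNA kit, per the labels' protocols. The authors deposited expected counts per gene (28.7% of values above 0 were not whole) on GRCm38, and STAR, RSEM and edgeR are named in the submitters' processing notes without versions. Neither the annotation nor the strand setting of the counting is given in the sources used here.

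Expected counts were rounded to whole numbers. Genes passing edgeR's filterByExpr (minimum count 10, minimum total 15) were fitted with edgeR 4.0.16 (R 4.3.3), TMM normalization and its quasi-likelihood F test, with 1 term per group over all 24 libraries and 18 residual degrees of freedom. P-values were adjusted over all 14560 genes (Benjamini-Hochberg), and the threshold was 0.05. Levels are CPM with TMM-scaled library sizes. DESeq2 1.42.0, total-count scaling, other filters, fits of only the groups compared, a replicate block and fits leaving out libraries were alternatives. The fit was tested on simulated data. Descriptions and figures used Python 3.11.15, pandas 2.3.3, numpy 2.4.6, scipy 1.17.1 and matplotlib 3.10.9.

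Values in every library are given for 10 chosen members and for any member past the threshold in at least 1 of 9 comparisons of 2 groups, and group means for the rest. The members and gene lists were chosen with earlier results of these data known. Intervals and the 3-count floor cover counting error only.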

Additional observations from a re-analysis of the deposited data

Results flagged for a closer look

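Of 138 sets examined, each 1 gene in the 4 libraries of 1 group, 4 held a library far from the other 3 by Dixon's criterion. Chance alone gives about 1 in 20, a share that 4 of 138 did not reach. Cr2 measured 3.12 CPM in TLR2 replicate 2 at 24 h, with the other libraries of the group at 1.79 to 2.0 CPM. Btk measured 12.1 CPM in the same library, with the others at 7.06 to 7.41 CPM. Fcmr measured 8.74 CPM in TLR2 replicate 1 at 72 h, a library between the times, with the others at 1.54 to 2.25 CPM. Tnfrsf13b measured 22.3 CPM in TLR7 replicate 4 at 24 h, also between the times, with the others at 14.3 to 14.9 CPM.

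The TLR7 effect on Fcmr differed between the times by 5.42 on the log2 scale, by a test of the interaction in edgeR.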

How the results depend on the processing

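Counts of members called differed between settings, and the shares of all genes called in each setting are not given beside them. Fitting only the groups compared gave 0 for TLR7 versus OVA at 24 h (3 in all libraries), 1 for TLR7 versus OVA at 72 h (6), 15 for TLR7 versus TLR2 at 24 h (3), 6 for TLR7 versus TLR2 at 72 h (17), 0 for OVA over time (18) and 12 for TLR2 over time (7). In the same order DESeq2 gave 10, 18, 11, 22, 23 and 13, with 1 for TLR2 versus OVA at 72 h (0) and 3 for the change of the TLR7 effect (1). Without the 8 libraries between the times the counts were 7, 4, 4, 0, 30 and 28. Without the 5 shallow libraries they were 0, 0, 0, 0, 0 and 2, with 0 for TLR7 over time (23) and 0 for the change of the TLR7 effect. Without a filter OVA over time gave 11 and TLR2 over time 3, and total-count scaling gave 1 for TLR7 versus TLR2 at 24 h. Leaving out the 8 and OVA replicate 3 at 72 h, chosen after seeing the data, gave 2 for TLR7 versus OVA at 72 h, 32 for OVA over time and 2 for the change of the TLR7 effect.

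With single libraries left out the counts were 0 to 3 for TLR7 versus OVA at 24 h, 1 to 17 at 72 h, 0 to 4 for TLR2 versus OVA at 72 h, 0 to 2 for TLR7 versus TLR2 at 24 h, 0 to 24 at 72 h, 0 to 23 for OVA over time, 0 to 12 for TLR2 over time, 19 to 24 for TLR7 over time and 0 to 3 for the change of the TLR7 effect. TLR7 versus TLR2 at 72 h turned positive, uncalled, without the 8 for Cd22 (1.00), Pax5 (0.06), Blnk (0.84), Spib (0.81), Ly6d (3.6) and Bcl11a (1.3). Of 1335 values of 78 member calls, 883 kept the call, 446 lost it and 6 reversed; DESeq2 kept all 78. The cause was not tested.

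The replicate block gave 3 calls for TLR7 versus OVA at 72 h and 0 for TLR7 versus TLR2 at 24 h. Libraries sharing a number in different groups had deviations correlating at -0.62 to 0.52 (median 0.04), over 0.1 in 21 of 60 pairs. Those with different numbers correlated at -0.7 to 0.69 (median -0.03), over 0.1 in 51 of 180 pairs. As these ranges overlapped, the check could not tell whether the numbers pair libraries. The main fit used no pairing.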
